A study of Mus musculus with 4 samples.

Results

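The genes described here are 89 of the 8699 genes counted in mouse spermatozoa, namely those whose symbol begins with the name of a glutathione, redox or xenobiotic enzyme family (such as Gst, Gpx, Prdx, Txn, Cyp, Aldh, Akr, Ces, Ugt or Sult) or of a regulator of these enzymes (Nfe2l2, Keap1, Ahr and Tiparp). The choice reads symbols only and takes no measured value as input. It and the gene lists used below were nevertheless made with earlier results of these data known. 1 of the 89, Fmod, shares only its first letters with the flavin monooxygenases. It encodes fibromodulin, a collagen-binding proteoglycan, and without it the members number 88. RNA was sequenced from spermatozoa squeezed out of the cauda of the epididymis, where ripe sperm are stored, of adult C57BL/6J males about 11 weeks old. The 2 saline libraries came from mice given saline and the 2 nicotine libraries from mice given nicotine, the main alkaloid of tobacco. Dose, route and the number of animals behind each library are unknown here. Every p-value therefore reflects only how these particular libraries vary, and part of that variation may be technical. No step that removes other cells is described in the labels.

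Glutathione is a small thiol that cells use to detoxify reactive compounds. Gclc and Gclm form the enzyme of the first step in making it, and Gss, which was not counted here, completes it. Glutathione transferases attach glutathione to electrophiles, glutathione peroxidases spend it on peroxides and Gsr restores it. Peroxiredoxins and thioredoxins form a parallel thiol system. Cytochromes P450, flavin monooxygenases, aldehyde oxidases and esterases modify foreign compounds, and glucuronosyl- and sulfotransferases make the products soluble. In many tissues Nfe2l2, held back by Keap1, switches on thiol and conjugation genes, and Ahr switches on Cyp1 genes and its own repressor Tiparp. Ripe sperm transcribe little, so their RNA is largely left from spermatid stages. The epididymal epithelium around them secretes antioxidant enzymes into the duct.

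Totals ran from 3798794 to 5216745 reads per library, but 74.9 to 90.6% of them lay on a pair of genes, Lars2 and Gm42418. Wherever 4 values are given together, they stand for saline replicates 1 and 2 and then nicotine replicates 1 and 2. Members held 13847, 18851, 4007 and 20935 reads, and the median member had 52, 44, 7 and 38. Nicotine replicate 1 was thus the thinnest library, with at most 3 reads on 34 of the 89 members and none on 4 of them (Akr1c13, Cyp20a1, Ces1e and Hmox1). Levels are CPM, read counts scaled to library size, after TMM scaling, and a log2 fold change is nicotine over saline ± a standard error (n = 2 per group). Of the sperm markers 20 of 25 were counted, each with reads in every library. Markers of the epididymal epithelium were counted as well (17 of 35), as were those of leukocytes (17 of 24) and of connective tissue and vessels (22 of 24), while none of 16 Sertoli and Leydig cell markers was analysed here. In bulk RNA, fewer cells of a type and less RNA per cell cannot be told apart.

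Few redox and xenobiotic enzyme RNAs were called different by edgeR's quasi-likelihood test. Of 88 tested members 3 rose with nicotine, namely Gstm5, Gstcd and Prdx6b, and 1 fell, Tiparp (adjusted p under 0.05). That is 3.41% higher and 1.14% lower, against 8.27% higher and 0.931% lower over all 8375 tested genes, so the share of members that rose was under the background and the share that fell was close to it. Their median log2 fold change was -0.11, and that of all tested genes -0.14. At an unadjusted p under 0.05 (edgeR), 6 of the 88 members were higher and 8 lower, against 1390 and 596 of all 8375 tested genes. These all-gene counts are the background for every unadjusted edgeR count of the main fit below. In 13 members both nicotine libraries lay above both saline libraries, which is 14.8% against 27.4% of all tested genes. In 25 both lay below, 28.4% against 31.0%. The single member that was too low to test was Gsto2, an omega-class transferase known from testis, with 6, 5, 4 and 35 reads.

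The 4 calls were lost when either saline library was left out, while the log2 fold changes moved little. Without saline replicates 1 and 2 in turn they were 2.52 and 2.36 for Gstm5 and 2.08 and 2.41 for Gstcd. They were 2.49 and 2.92 for Prdx6b and -2.13 and -2.52 for Tiparp. Without saline replicate 1, 0 members rose and 0 fell, although 5 higher and 3 lower members had an unadjusted p under 0.05. Of all genes 0.152% then rose and 0.303% fell. Without saline replicate 2 the members' counts were again 0 and 0, with 3 and 7 at an unadjusted p under 0.05, and the shares over all genes 0.0% and 0.104%. Without the thin nicotine replicate 1, 6 members rose and 4 fell, against 10.8% and 3.29% of all genes. Without nicotine replicate 2, 5 rose and 14 fell, against 17.8% and 9.67%. Gstm5, Gstcd, Prdx6b and Tiparp were called in each of the last 2 cases.

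Other tools gave counts close to these, and scaling by totals gave none. DESeq2 called 4 members higher and 0 lower (6 lower at an unadjusted p under 0.05), against 10.4% and 0.966% of all genes. Limma-voom called 3 and 1, against 9.15% and 0.549%. Median-of-ratios factors gave 3 and 1 (8.75% and 0.967% of all genes), no filter on low counts 3 and 1 (7.59% and 0.851%), and quantile normalisation 2 and 0 (5.71% and 1.07%), with 15 lower at an unadjusted p under 0.05. Scaling by library totals gave 0 and 0 (0.0% and 0.107%), and totals outside Lars2 and Gm42418 gave 0 and 0 (0.0% and 0.0%). The corresponding counts at an unadjusted p under 0.05 were 0 and 9 for the former and 5 and 18 for the latter. With the replicate number as a block, 4 rose and 5 fell, against 12.9% and 3.33% of all genes.

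**Figure D1:**
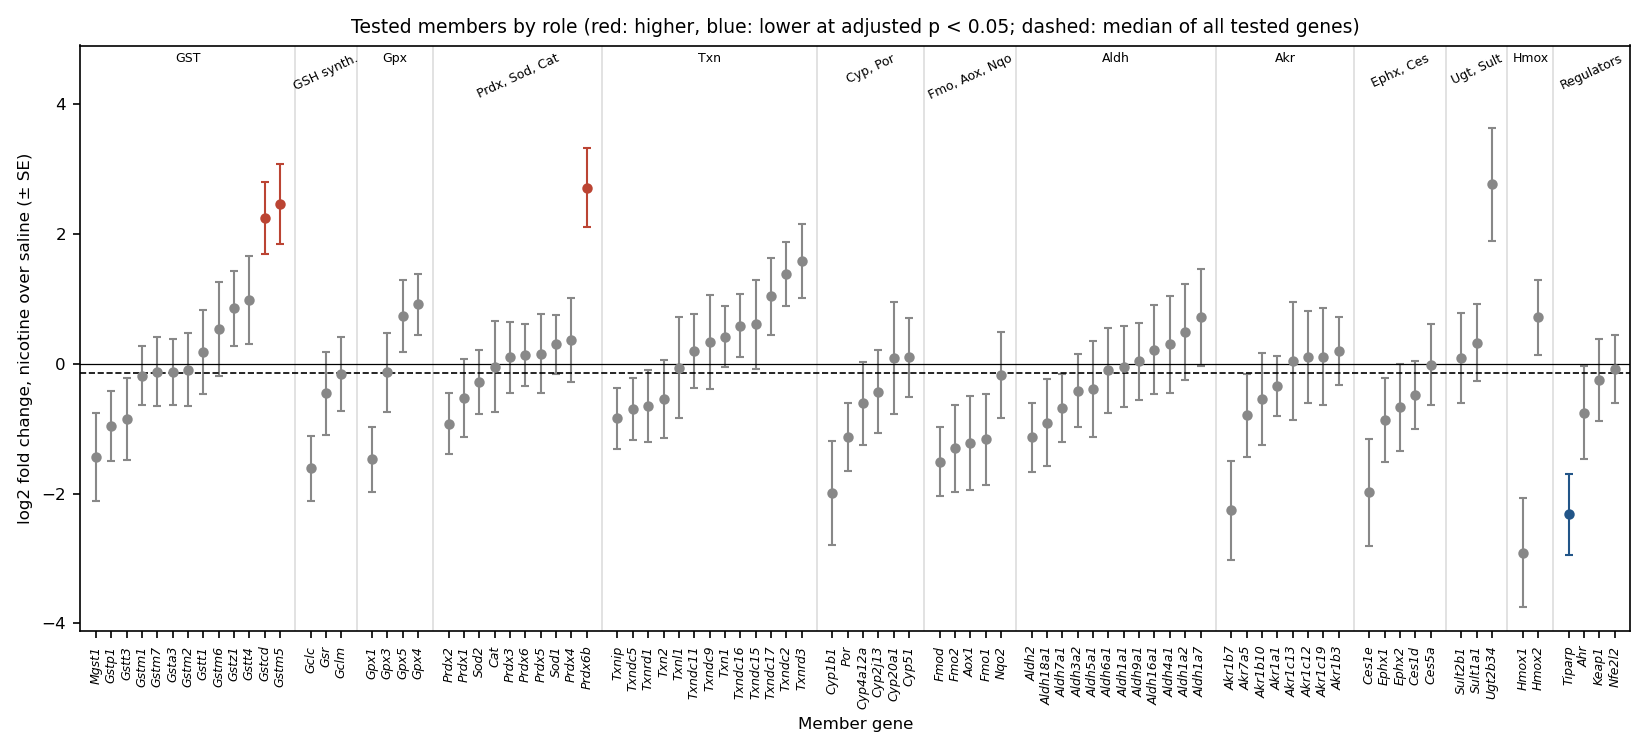
Log2 fold change of nicotine over saline for the 88 tested members, grouped by role on the horizontal axis; points are edgeR estimates and bars ± 1 standard error from 2 libraries per group. Red points are the 3 members that rose, the blue point is Tiparp, which fell, and the dashed line is the median of all tested genes at -0.14.

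Among the glutathione transferases, 2 of 13 tested members rose and none fell, which is 15.4% higher against 8.27% of all tested genes and 0.0% lower against 0.931%. The family median was -0.09, against -0.14. Gstm5 is a mu-class transferase known from rodent testis. It was the most abundant transferase, with 1679, 1426, 2225 and 4754 reads, or 250.0, 225, 1806 and 819.9 CPM. Both nicotine libraries lay above both saline libraries, and they differed from each other by more than the saline libraries did. The log2 fold change was 2.47 ± 0.62 (adjusted p = 0.0374, edgeR). It ranged from 0.92 to 3.0 over the 12 other settings and was past the threshold in 8 of them. It was 0.92 with scaling by library totals (adjusted p = 0.511) and also with quantile normalisation (adjusted p = 0.0490). Without saline replicates 1 and 2 in turn it was 2.52 and 2.36, neither past the threshold (adjusted p = 0.549 and 0.590).

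Gstcd, a protein with the carboxy-terminal domain of these transferases, had fewer reads, 47, 56, 66 and 137. Its level was 7.0, 8.82, 53.6 and 23.6 CPM, so the groups did not overlap and nicotine replicate 1 was the highest. It rose by 2.25 ± 0.55 (adjusted p = 0.0353). The change was 1.59 without nicotine replicate 1, 2.08 and 2.41 without saline replicates 1 and 2 (adjusted p = 0.386 and 0.360) and 1.88 with quantile normalisation (adjusted p = 0.0508). In the GENCODE annotation, 100 of its exon bases lie opposite Ints12, which had 16, 15, 3 and 12 reads. Gstm5 likewise shares 178 of 1278 exon bases with an antisense gene that was not analysed here. Whether the counting used strand is not given in the sources used here, so such reads cannot be told apart. The same holds for Tiparp, Aldh6a1, Keap1, Nqo2 and other members, 29 of 89 in all, that share exon bases with a neighbour.

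The other transferases gave no call. The mu-class genes Gstm1 and Gstm2 followed Gstm5 in level per length, with 39.4 and 32.6 CPM per kilobase in saline against 186 for Gstm5, and 34.8 and 30 against 1027 in nicotine. Their log2 fold changes were -0.18 ± 0.46 and -0.09 ± 0.56, and their groups overlapped. Gstp1, the pi-class enzyme, had 129, 158, 7 and 89 reads, with both nicotine libraries below both saline libraries in CPM (-0.96 ± 0.54, adjusted p = 0.313). Mgst1, a transferase bound to membranes, had 82, 42, 1 and 28 reads and the lowest value of the family, -1.43 ± 0.68 (adjusted p = 0.233). Both passed without nicotine replicate 2, with -1.88 and -3.42. Gstt4, a theta-class gene known from testis, had 16, 12, 2 and 33 reads and 0.98 ± 0.68 (adjusted p = 0.425). The 6 tested transferases not named so far lay between -0.85 and 0.86.

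Within the family the makeup of the reads can be read without any scaling factor. Gstm5 held 57.9% of all transferase reads in saline replicate 1 (exact Clopper-Pearson 95% interval 56.1 to 59.7%) and 45.7% in saline replicate 2 (44.0 to 47.5%). In nicotine replicates 1 and 2 it held 90.2% (89.0 to 91.4%) and 76.1% (75.0 to 77.1%). The intervals of the groups were apart, but they cover counting error only. The smallest two-sided p that an exact permutation test can give with 2 libraries against 2 is 0.333, so these shares were not tested. This share and the others below were chosen after the values were seen. Gstm5 aligned with Gstm1, Gstm2, Gstm6 and Gstm7 at 71.9 to 74.5% identity, with no identical run longer than 24 bases, while Gstm1 and Gstm2 shared a run of 60 bases.

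The promoters of Gstm5, Gstcd and Tiparp are shown because these are the called members with an entry in the sequence table, and because Nfe2l2 and Ahr, the regulators among the members, bind short motifs in such regions. The windows are RefSeq sequences of build GRCm38.p6, from 250 bases before to 50 after the transcript start, at chr3:107895604-107895903, plus strand, chr3:133091990-133092289, minus strand, and chr3:65528197-65528496, plus strand. Capitals mark matches on either strand to the core of the xenobiotic response element, GCGTG, which Ahr binds, and to the core of the antioxidant response element, TGACNNNGC, which Nfe2l2 binds. The cyclic AMP response element TGACGTCA was also searched.
Gstm5: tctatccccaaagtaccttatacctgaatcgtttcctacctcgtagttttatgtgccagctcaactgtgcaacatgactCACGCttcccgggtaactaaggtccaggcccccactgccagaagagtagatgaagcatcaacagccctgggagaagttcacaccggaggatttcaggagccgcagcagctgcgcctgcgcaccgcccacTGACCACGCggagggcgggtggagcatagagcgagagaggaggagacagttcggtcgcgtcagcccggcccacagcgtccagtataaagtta
Gstcd: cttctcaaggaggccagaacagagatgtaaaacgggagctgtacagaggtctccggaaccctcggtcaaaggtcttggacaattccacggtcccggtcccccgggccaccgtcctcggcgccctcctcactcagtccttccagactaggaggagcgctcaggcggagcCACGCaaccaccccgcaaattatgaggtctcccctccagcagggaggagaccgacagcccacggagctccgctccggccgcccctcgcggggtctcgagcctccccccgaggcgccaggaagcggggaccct
Tiparp: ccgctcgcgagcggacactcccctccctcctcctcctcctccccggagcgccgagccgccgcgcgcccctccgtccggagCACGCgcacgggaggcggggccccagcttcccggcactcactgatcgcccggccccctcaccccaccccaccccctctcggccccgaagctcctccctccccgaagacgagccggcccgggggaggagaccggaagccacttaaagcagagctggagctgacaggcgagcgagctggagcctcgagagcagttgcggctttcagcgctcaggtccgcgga
The Gstm5 window held 1 match to the antioxidant core and 2 to the xenobiotic core, of which 1 lies inside the antioxidant match. The Gstcd and Tiparp windows held 1 match to the xenobiotic core each and none to the antioxidant core. Over the 75 of 89 members with a window, 50.7% held the xenobiotic core and 14.7% the antioxidant core. Of 27025 genes, 32.5% and 12.5% did. Those are all genes with a window, not only the genes counted in these libraries, and base composition was not matched. The Gstm5, Gstcd and Tiparp windows held 57.0, 66.3 and 73.7% G or C. The part of base composition in the unlike shares was not tested. No member window held the cyclic AMP element, which 1.88% of all windows did. A match is a run of letters and no evidence of binding. Prdx6b had no entry.

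The 3 counted genes for making and restoring glutathione gave no call. All 3 had log2 fold changes below 0, as did 4651 of all 8375 tested genes. Gclc, the catalytic subunit of glutamate cysteine ligase, had 110, 127, 6 and 38 reads, or 16.4, 20.0, 4.87 and 6.55 CPM. Both nicotine libraries lay below both saline libraries (-1.61 ± 0.50, adjusted p = 0.0704). Its value ranged from -2.75 to -1.46 over the other settings and passed in 3 of 12, among them both that left out a nicotine library. Gclm, the modifier subunit, had 47, 53, 4 and 53 reads and -0.16 ± 0.57. Gsr, which reduces glutathione disulfide, had 22, 43, 3 and 25 reads and -0.45 ± 0.64. The groups overlapped for both genes.

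Of the 4 glutathione peroxidases none passed, with 1 at an unadjusted p under 0.05, and their levels followed different patterns over the libraries. Gpx3, the secreted peroxidase, was the most abundant member of all in reads in both saline libraries, with 3082, 5088, 417 and 4702 reads. Its 459, 802, 338 and 811 CPM split each group, high in saline replicate 2 and nicotine replicate 2 and lower in the other libraries (-0.13 ± 0.61, adjusted p = 0.924). Gpx5, an epididymal peroxidase without selenium, had only 27, 44, 14 and 44 reads, and its nicotine values of 11.4 and 7.59 CPM lay just above the saline values of 4.02 and 6.93 (0.74 ± 0.56, adjusted p = 0.466).

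Gpx4 reduces lipid peroxides and is a structural protein of the capsule around sperm mitochondria. It had 549, 441, 173 and 844 reads, that is 81.7, 69.5, 140.4 and 146 CPM. The groups did not overlap and each was tight, yet the change of 0.92 ± 0.47 did not pass (adjusted p = 0.264). With scaling by library totals it was -0.28, so its direction depended on the scaling. The share of Gpx4 in all Gpx reads was 14.3, 7.63, 28.2 and 14.9%. Nicotine replicate 2 and saline replicate 1 had overlapping intervals (14.0 to 15.9% and 13.2 to 15.5%). Gpx1, the cytosolic peroxidase, went the other way with 26.1, 32.3, 7.30 and 12.8 CPM. Its change of -1.47 ± 0.50 did not pass (adjusted p = 0.0958), and it passed in 2 of 12 other settings.

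**Figure D2:**
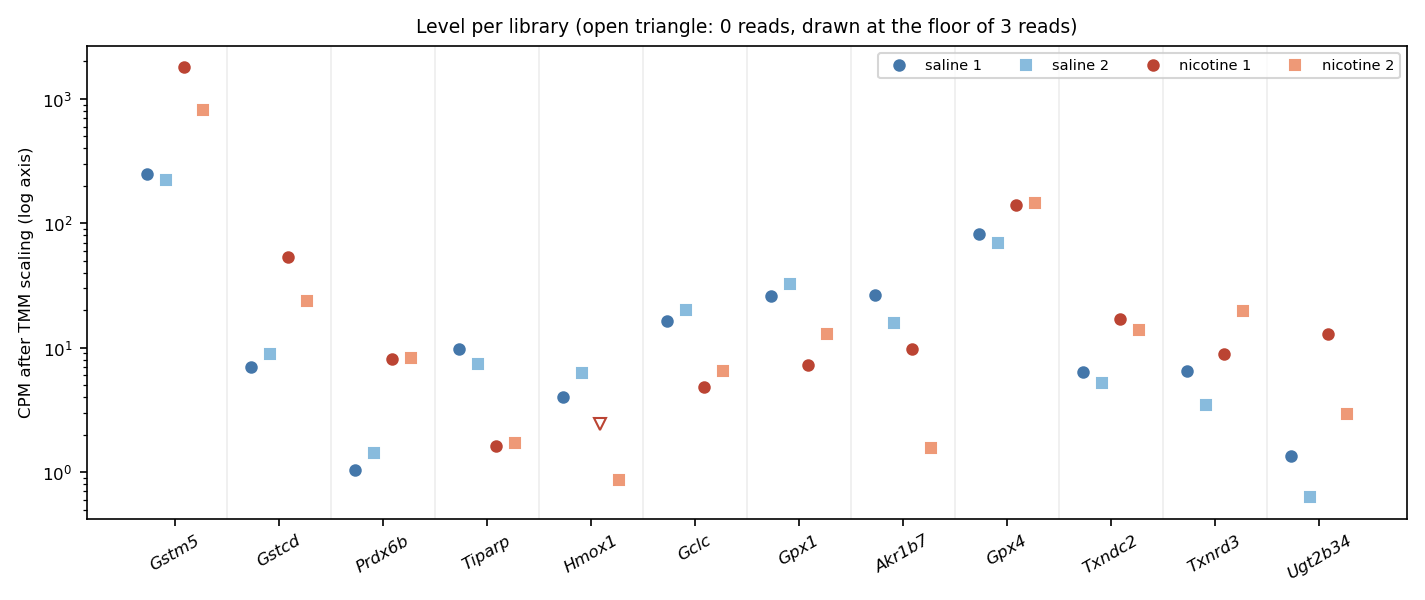
CPM after TMM scaling, on a log axis, of 12 members in each library; circles and squares are replicates 1 and 2, blue is saline, red or orange is nicotine, and the open triangle marks 0 reads drawn at the floor of 3. The 3 members that rose (Gstm5, Gstcd and Prdx6b) have both nicotine points above both saline points, and Tiparp has them below.

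In the peroxiredoxin, superoxide dismutase and catalase group 1 of 10 members rose and none fell. That is 10% higher against 8.27% of all tested genes, close to the background, and 0% lower against 0.931%. Prdx6b, a close copy of the peroxiredoxin and phospholipase gene Prdx6, had few reads in saline, 7 and 9, against 10 and 48 in nicotine. Its level was 1.04, 1.42, 8.12 and 8.28 CPM, so the nicotine libraries lay close together and far from saline. With only 10 reads in nicotine replicate 1, that closeness is within counting error and shows no tight replication. It rose by 2.72 ± 0.61 (adjusted p = 0.0329), and by 2.49 and 2.92 without saline replicates 1 and 2, where it did not pass (adjusted p = 0.343 and 0.358). Prdx6 itself had 76, 114, 18 and 100 reads and 0.14 ± 0.48, with overlapping groups. The pair aligned at 89.7% identity over 1442 bases, with an identical run of 53 bases. The treatment of reads that match both copies is not given in the sources used here, so the division between them is uncertain. As deposited, Prdx6b took 8.43 and 7.32% of the reads of the pair in saline (95% intervals 3.46 to 16.6% and 3.40 to 13.4%), and 35.7 and 32.4% in nicotine (18.6 to 55.9% and 25 to 40.6%).

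The other antioxidant enzymes gave no call by edgeR, DESeq2 or limma-voom. Sod1, the cytosolic superoxide dismutase, had 32.3, 32.8, 35.7 and 44.2 CPM (0.30 ± 0.45), and Sod2, the mitochondrial one, 17.1, 15.3, 8.93 and 16.6 (-0.28 ± 0.49). Cat, the peroxisomal catalase, had 28, 11, 3 and 18 reads (-0.04 ± 0.70). The cytosolic Prdx2 had 15.3, 15.4, 8.12 and 8.11 CPM, equal within each group to the second digit, with nicotine lower (-0.92 ± 0.47, adjusted p = 0.270). Its nicotine values rest on 10 and 47 reads, so their closeness shows no tight replication. Exons of Prdx2 lie opposite those of Junb and Rnaseh2a, so reads could be shared with either. Prdx1, another cytosolic peroxiredoxin, had 276, 307, 15 and 276 reads and -0.53 ± 0.60, a value set by nicotine replicate 1, since it was 0.10 without it and -1.81 without nicotine replicate 2 (adjusted p = 0.00814). The mitochondrial Prdx3, the secretory pathway member Prdx4, known from testis, and Prdx5 lay between 0.10 and 0.37 with overlapping groups.

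Thioredoxin genes gave no call in 13 tested members by edgeR, DESeq2 or limma-voom. At an unadjusted p under 0.05 (edgeR), 2 were higher and 0 lower, against 1390 and 596 of all 8375 tested genes. The highest values belonged to genes known from spermatids. Txndc2, a thioredoxin of the sperm tail, had 43, 33, 21 and 80 reads, or 6.40, 5.20, 17 and 13.8 CPM, and the groups did not overlap (1.39 ± 0.49, adjusted p = 0.107). Txnrd3, the testis reductase that acts on both thioredoxin and glutathione, had 6.55, 3.47, 8.93 and 19.8 CPM, again without overlap (1.59 ± 0.57, adjusted p = 0.113). Txndc2 passed without nicotine replicate 2 and Txnrd3 without nicotine replicate 1. Txnrd1, the reductase of somatic cytosol, had 78, 81, 4 and 62 reads, with nicotine below saline (-0.65 ± 0.56). Txnrd3 took 36.1 and 21.4% of the reads of these reductases in saline, and 73.3 and 65.0% in nicotine. The 73.3% rests on 11 of 15 reads (95% interval 44.9 to 92.2%).

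Txn1, the cytosolic thioredoxin, had 9.53, 11.2, 15.4 and 12.8 CPM, with both nicotine libraries higher (0.42 ± 0.47, adjusted p = 0.633). Txnip, which binds and blocks thioredoxin, had 45.3, 30.7, 21.1 and 21.4 CPM, with both lower (-0.84 ± 0.47, adjusted p = 0.319). Txndc5, a disulfide isomerase of the endoplasmic reticulum, had 19.5, 18.4, 14.6 and 9.49 CPM and -0.70 ± 0.48. The other 7 members ranged from -0.54 to 1.04.

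The heme oxygenases split. Hmox1, the inducible enzyme that breaks down heme, had 27 and 40 reads in saline, 0 in nicotine replicate 1 and 5 in nicotine replicate 2. In nicotine replicate 1 the floor of 3 reads equals 2.43 CPM, against 4.02 and 6.30 CPM in saline and 0.862 in nicotine replicate 2. The change of -2.91 ± 0.84 lay just outside the threshold (adjusted p = 0.0561), and it was past it with either nicotine library left out (adjusted p = 0.0442 and 0.0236). Hmox2, the constitutive enzyme, had 65, 49, 7 and 121 reads, and its groups overlapped (0.72 ± 0.58, adjusted p = 0.498). It was -0.20 with scaling by library totals. Hmox2 shares 892 of 2217 exon bases with Cdip1 on the opposite strand, which had 47, 52, 2 and 26 reads. Hmox1 took 29.3 and 44.9% of Hmox reads in saline (95% intervals 20.3 to 39.8% and 34.4 to 55.9%), and 0 of 7 and 5 of 126 reads in nicotine, where the upper bounds were 41.0 and 9.02%.

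**Figure D3:**
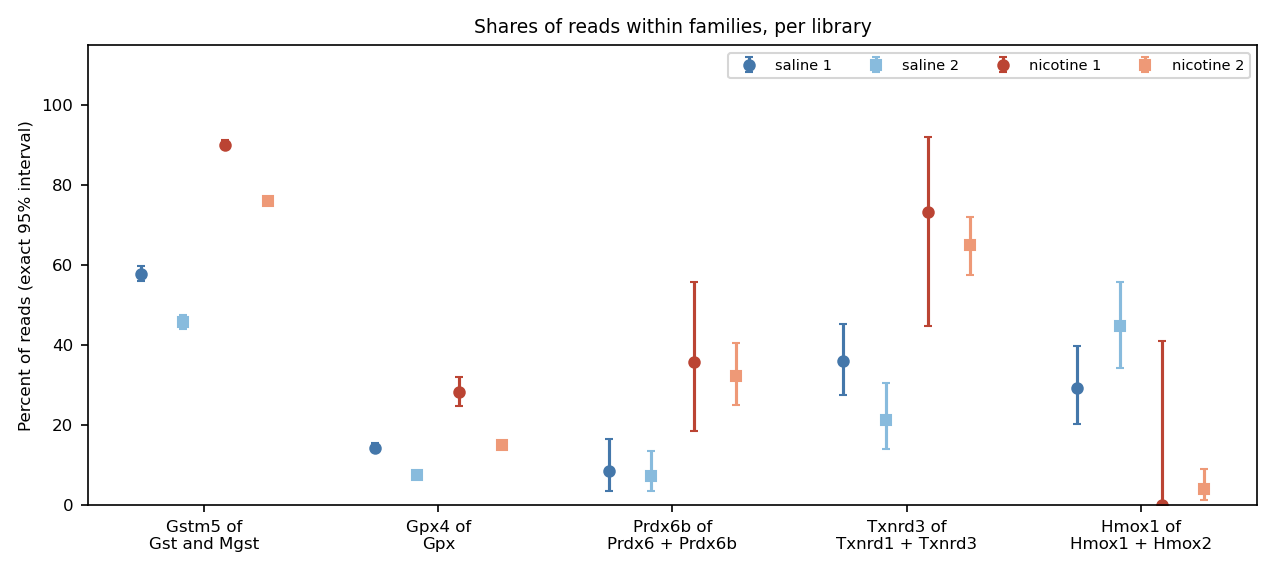
Percent of reads taken by 1 gene within its family, per library, with exact 95% binomial intervals that cover counting error only. Gstm5, Prdx6b and Txnrd3 have higher shares and Hmox1 lower shares in both nicotine libraries than in both saline libraries, while Gpx4 in nicotine replicate 2 is level with saline replicate 1.

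Among the regulators, Tiparp fell. Tiparp is an ADP-ribosyltransferase that Ahr induces and that represses Ahr in turn. It had 65 and 47 reads in saline against 2 and 10 in nicotine, or 9.68, 7.40, 1.62 and 1.72 CPM. The groups lay far apart, although 2 reads is below the floor of 3, which equals 2.43 CPM in nicotine replicate 1. With so few reads the closeness of the nicotine values shows no tight replication. The change was -2.32 ± 0.63 (adjusted p = 0.0456). It stayed between -3.47 and -1.91 over the 12 other settings, but passed in 5 of them. DESeq2, limma-voom and quantile normalisation gave adjusted p = 0.0716, 0.0579 and 0.0565. Without saline replicates 1 and 2 in turn it was -2.13 and -2.52 (adjusted p = 0.415 and 0.360).

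Ahr itself, the receptor for dioxins and other aromatic ligands, had only 17, 33, 1 and 17 reads (-0.75 ± 0.72, adjusted p = 0.576). Nfe2l2 had 78, 73, 20 and 42 reads, or 11.6, 11.5, 16.2 and 7.24 CPM, with the nicotine libraries on either side of saline (-0.08 ± 0.53, adjusted p = 0.947). Keap1 had 21, 22, 3 and 17 reads and -0.25 ± 0.63. Of the members known as Nfe2l2 targets, 13 of 21 were tested and 0 passed in either direction by edgeR, DESeq2 or limma-voom. By edgeR, 8.27% of all tested genes rose and 0.931% fell. At an unadjusted p under 0.05 (edgeR), 0 of the targets were higher and 2 lower. In 1 both nicotine libraries lay above saline (7.69% against 27.4% of all tested genes) and in 6 below (46.2% against 31.0%). The median of the 13 was -0.53 (-0.39 relative to all genes). Of 8 known Ahr targets 2 were counted. Both were lower in nicotine, and only Tiparp passed. Over all tested genes 31.0% had both nicotine libraries below saline and 0.931% fell, and 2 genes are too few to describe Ahr targets. The other was Cyp1b1, a P450 that oxidises aromatic compounds and steroids, with 55, 17, 1 and 9 reads (-1.99 ± 0.80, adjusted p = 0.159).

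Of 132 P450 and reductase symbols only 6 genes were counted, and none passed by edgeR, DESeq2 or limma-voom. Por, the reductase that feeds electrons to the P450 enzymes of the endoplasmic reticulum, had 11.0, 11.0, 5.68 and 4.66 CPM, with nicotine lower (-1.13 ± 0.52, adjusted p = 0.216). Cyp4a12a, a fatty acid hydroxylase, was the most abundant P450 with 133, 334, 13 and 202 reads. Its groups overlapped (-0.61 ± 0.64). Cyp51, of cholesterol synthesis, had 59, 123, 8 and 126 reads and 0.10 ± 0.61. Cyp20a1, a P450 whose substrate is not established, had 10, 24, 0 and 24 reads and 0.09 ± 0.86. The remaining gene, Cyp2j13, had -0.43 ± 0.64 with overlapping groups.

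Genes listed for nicotine metabolism were hardly counted. Nicotine is oxidised by a P450 of the 2A family and then by aldehyde oxidase to cotinine, by flavin monooxygenases to its N-oxide, and is joined to glucuronic acid by Ugt enzymes. Of 14 genes listed for these steps, 3 were counted and the others were not analysed here. Aox1, an aldehyde oxidase, had 42, 18, 1 and 14 reads (-1.22 ± 0.73, adjusted p = 0.344). Fmo1 had 66, 20, 3 and 18 reads (-1.16 ± 0.70, adjusted p = 0.350). Both were lower in each nicotine library than in either saline library, and highest in saline replicate 1. Ugt2b34, a glucuronosyltransferase, had the highest log2 fold change of all tested members. Whether it acts on nicotine is not known from the data used here. It had 9, 4, 16 and 17 reads, or 1.34, 0.630, 13.0 and 2.93 CPM, and 2.77 ± 0.87 (adjusted p = 0.0733). DESeq2 called it (adjusted p = 0.0307), and it was 1.57 without nicotine replicate 1 (adjusted p = 0.249).

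The remaining monooxygenases and conjugating enzymes gave no call. Fmo2, a flavin monooxygenase of lung in many mammals, had 178, 42, 9 and 37 reads (-1.30 ± 0.67, adjusted p = 0.271). Its high value lay in saline replicate 1 alone, at 26.5 CPM against 6.38 to 7.30 in the others. Fmod, the proteoglycan caught by the pattern, had 16.8, 10.6, 4.06 and 5.17 CPM, both nicotine libraries lower (-1.51 ± 0.53, adjusted p = 0.108). Connective tissue and vessel markers summed to 4928, 2296, 731 and 1588 CPM in the same libraries. Of their 20 tested genes 3 fell, 15% against 0.931% of all tested genes, and none rose (0% against 8.27%). Of the 22 counted, 1 was at 0 in saline replicate 2 and 1 in nicotine replicate 1. Leukocyte markers summed to 226, 249.8, 129.9 and 104 CPM. Of 17 tested 1 fell, 5.88% against 0.931%, none rose (0% against 8.27%), and 2 were at 0 in nicotine replicate 1. The part of either in the lower members was not tested. Nqo2, a quinone reductase, had 15, 17, 3 and 12 reads (-0.17 ± 0.66). Sult1a1, which sulfates phenols, and Sult2b1, which sulfates cholesterol, had 0.33 ± 0.59 and 0.09 ± 0.70.

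Aldehyde dehydrogenases gave no call in 12 members, with 0 at an unadjusted p under 0.05 and 0 by DESeq2 or limma-voom. Aldh1a1, a retinaldehyde dehydrogenase, was the most abundant with 693, 1111, 71 and 1224 reads, or 103, 175, 57.6 and 211 CPM. Its libraries spread as widely within each group as between them (-0.04 ± 0.63). Its near copy Aldh1a7 had 29, 32, 1 and 71 reads (0.72 ± 0.75), and the pair shared an identical run of 100 bases. Aldh1a2, which makes retinoic acid, had 0.49 ± 0.74. Aldh2, the mitochondrial enzyme that clears acetaldehyde, had 173, 223, 10 and 106 reads, with both nicotine libraries below saline (-1.13 ± 0.53, adjusted p = 0.222). Aldh18a1, of proline synthesis, had -0.91 ± 0.67, and Aldh6a1, of valine breakdown, 32.0, 40.8, 9.74 and 55.5 CPM and -0.10 ± 0.66. Aldh1a1, Aldh2 and Aldh6a1 were called lower without nicotine replicate 2 (-1.21, -1.84 and -1.83). Without nicotine replicate 1 none of them passed, and Aldh1a1 and Aldh6a1 then had 0.61 and 0.62. The other 6 aldehyde dehydrogenases had log2 fold changes from -0.68 (Aldh7a1) to 0.30 (Aldh4a1).

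Aldo-keto reductases gave no call by edgeR, with 1 lower at an unadjusted p under 0.05 and 0 calls by DESeq2. Akr1b7, the major protein of the mouse vas deferens, had 177, 101, 12 and 9 reads, or 26.4, 15.9, 9.74 and 1.55 CPM. Both nicotine libraries lay below saline (-2.26 ± 0.77, adjusted p = 0.0973). It passed by limma-voom (-3.26, adjusted p = 0.0141) and without nicotine replicate 1 (-3.73, adjusted p = 0.00166), but was -1.04 without nicotine replicate 2. Akr1a1, an aldehyde reductase, had 39.2, 55.1, 35.7 and 38.6 CPM (-0.34 ± 0.46). Akr7a5 and Akr1b3, also reductases of aldehydes, had -0.79 ± 0.64 and 0.20 ± 0.52. Akr1c19 had 10.7, 26.3, 4.06 and 32.9 CPM and 0.11 ± 0.75, which became -2.12 without nicotine replicate 2 (adjusted p = 0.0327). Akr1b10, Akr1c12 and Akr1c13 had -0.54, 0.11 and 0.04 with overlapping groups. Akr1c12 and Akr1c13 shared an identical run of 228 bases, so their division of reads is uncertain.

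The esterase Ces5a, which the epididymis secretes, was among the most abundant members with 1533, 3557, 281 and 3204 reads. Its 228, 560.3, 228 and 553 CPM were alike in the first replicates of both groups and alike in the second ones (-0.01 ± 0.63, adjusted p = 0.994). Ces1d, a carboxylesterase that hydrolyses lipids and drugs, had 30.8, 54.8, 21.1 and 39.0 CPM (-0.48 ± 0.52). Ces1e had 24, 42, 0 and 10 reads and -1.98 ± 0.82 (adjusted p = 0.17). The epoxide hydrolases Ephx1, which acts on foreign epoxides, and Ephx2, which acts on fatty acid epoxides, had -0.87 ± 0.65 and -0.67 ± 0.67.

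Of 10 members known from the epididymis 5 were counted. Gpx5 had both nicotine libraries above saline, Akr1b7 had both below, and the groups overlapped for the other 3 (Gpx3, Ces5a and Cyp4a12a). Of the 5, 0 passed by edgeR (1 lower at an unadjusted p under 0.05; limma-voom called Akr1b7 lower and DESeq2 none), and their median was -0.13. Their summed level was 737, 1437, 598 and 1407 CPM, of which Gpx3 and Ces5a made the bulk. The epididymal epithelium markers summed to 1160.3, 3505, 1617 and 4118 CPM, again higher in saline replicate 2 and nicotine replicate 2. Crisp1 alone gave 653, 1926, 1042 and 2738 CPM of these sums. Defb1, Cst8, Eppin, Krt8 and Car2 did not have this course, and the other counted markers did. Of the 16 tested markers 1 rose, 6.25% against 8.27% of all tested genes, and none fell (0% against 0.931%). None was at 0 in any library. Over 4 libraries no correlation can be given, and the part of epithelial RNA in these levels was not tested.

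Of 10 members known from testis or sperm 8 were counted and 7 tested. Only Gstm5 rose and none fell, which is 14.3% higher against 8.27% of all tested genes and 0.0% lower against 0.931%. With TMM the 7 log2 fold changes lay between 0.14 and 2.47, with a median of 0.98 against -0.14 for all tested genes. The groups overlapped for Gstt4, Prdx4 and Prdx6. With scaling by library totals Gpx4 (-0.28), Gstt4 (-0.03), Prdx4 (-0.64) and Prdx6 (-1.02) were below 0. With totals outside Lars2 and Gm42418 this held for Prdx4 (-0.22) and Prdx6 (-0.52), and with quantile normalisation for Prdx6 (-0.03). Their summed level was 363, 327, 1993 and 1034 CPM, most of it Gstm5. Sperm markers in the same libraries summed to 2872, 2452, 16026 and 10700.0 CPM. Of the 20 tested, 14 rose, 70% against 8.27% of all tested genes, and none fell (0.0% against 0.931%). None was at 0, and their median was 2.06. The part of sperm RNA content in the rise of Gstm5, Gstcd and Prdx6b was not tested.

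**Figure D4:**
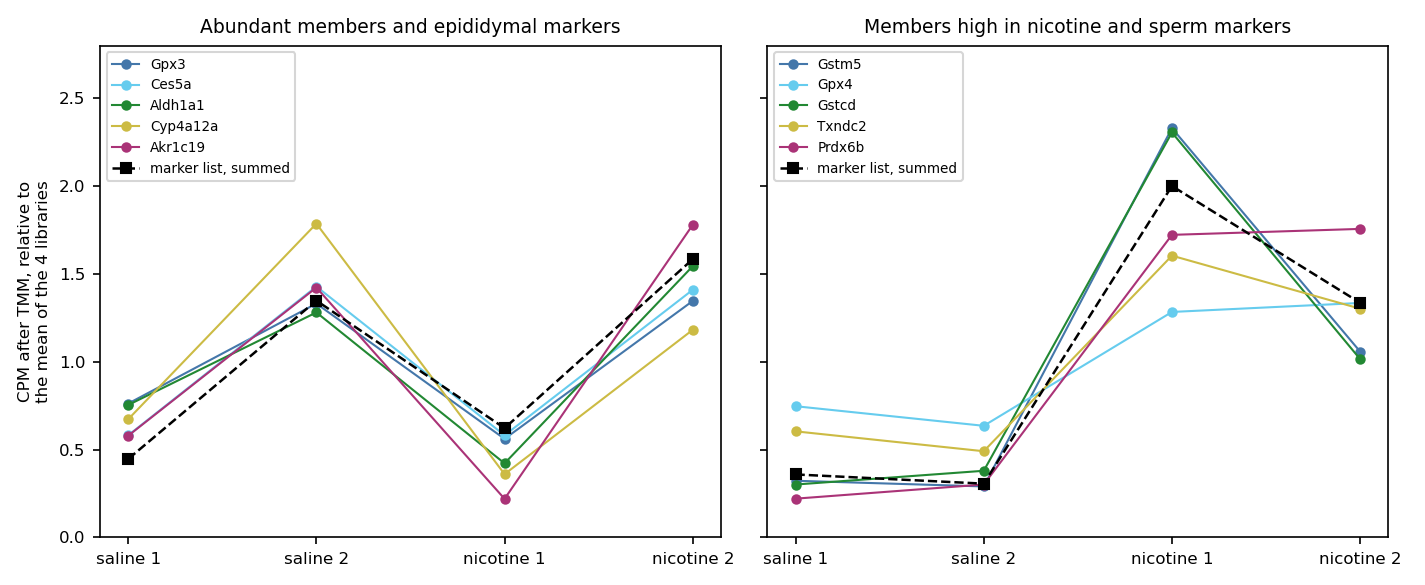
CPM after TMM of 5 members in each panel, relative to each gene's mean over the 4 libraries, with the summed marker list as a dashed line. The left panel has some of the more abundant members and the epididymal epithelium list. The right panel has some members high in nicotine and the sperm list. On the left all lines are higher in saline replicate 2 and nicotine replicate 2 than in the other libraries. On the right all lines are higher in both nicotine libraries than in both saline libraries. The members were picked by hand, those on the right for being high in nicotine, so the shared course is no test. Of members with a higher mean RPKM than Akr1c19 and not drawn on the left, Gstm2, Gstm7, Ces1d and Prdx1 also had that course. Gstm5, Gpx4, Sod1, Gstm1, Gstp1, Gpx1, Akr1a1 and Akr1b7 did not.

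Outside these families, 57 of 80 listed partner genes were tested, among them the enzymes that supply NADPH, glutaredoxins, transporters and dimerisation partners of the regulators. By edgeR 2 rose and 1 fell, which is 3.51% higher and 1.75% lower, against 8.27% and 0.931% of all tested genes. Their median was -0.34, against -0.14. G6pd2, a testis copy of the glucose-6-phosphate dehydrogenase that makes NADPH, had 19, 11, 42 and 99 reads and rose by 3.43 ± 0.59 (adjusted p = 0.0329). Me1, the cytosolic malic enzyme, which also makes NADPH, had 39, 44, 74 and 179 reads and rose by 2.81 ± 0.54 (adjusted p = 0.0329). Cyba, a membrane subunit of the superoxide-forming NADPH oxidases of phagocytes and other cells, had 35, 50, 2 and 3 reads and fell (-3.03 ± 0.80, adjusted p = 0.0428). In each of the 3 genes the groups did not overlap.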

How the data were processed

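RNA of 2 saline and 2 nicotine libraries was analysed, each from 1 deposited table. The submitters' processing notes name CASAVA, TopHat and build mm8, with no role for any of them. Nothing used here states the counting program, its annotation or its strand setting. The read column was deposited by the authors as reads per gene, checked as an expected count column because its last line, without a gene, holds a fraction; gene lines were whole numbers and rounding changed none. That line was left out. RPKM values, deposited by the authors, equalled reads per length and library total, and were used only to rank members for naming. Symbols were found for 8688 of 8699 identifiers.

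Nicotine was compared with saline in edgeR 4.0.16 (R 4.3.3) by the quasi-likelihood test on all genes, with TMM factors of 1.681, 1.647, 0.325 and 1.113, filterByExpr with a minimum count of 10 (8375 genes tested, 324 not) and Benjamini-Hochberg adjustment at 0.05. Standard errors are the size of the log2 fold change over the square root of F. Alternatives used DESeq2 1.42.0, limma 3.58.1 with a prior count of 2, other scalings, no filter, a replicate term and each library left out. The floor for 0 reads was set at 3, equal to 0.447, 0.473, 2.43 and 0.517 CPM. Overlaps and transcript identities (blastn 2.17.0) came from GENCODE M21 on GRCm38, a later build than mm8, and were joined to the counts by gene only.

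Members and lists were chosen with earlier results of these data known. Named are the called members and, in each of 13 role groups, the 3 with the highest mean RPKM. The members with the 2 highest and 2 lowest log2 fold changes of each group are named too. So are all regulators, glutathione synthesis and antioxidant members, those listed for testis, epididymis or nicotine metabolism, and called partner genes. Ugt2b34 and others that meet several of these count under each.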

Additional observations from a re-analysis of the deposited data

How the results depend on the processing

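With all libraries and TMM, 3 members rose and 1 fell, with a median log2 fold change of -0.11, which is 0.03 above that of all tested genes. Median-of-ratios factors and no filter on low counts gave the same counts. Limma-voom also gave 3 and 1, but with Akr1b7 in place of Tiparp. Scaling by library totals gave 0 higher and 0 lower (0 and 9 at an unadjusted p under 0.05) and a median of -1.17, and scaling by totals outside Lars2 and Gm42418 gave 0 and 0 (5 and 18) and a median of -0.72. These scalings put the median of all genes at -1.28 and -0.75 in place of -0.14. DESeq2 gave 0 lower (6 at an unadjusted p under 0.05) and quantile normalisation 0 lower (15). With libraries left out in turn the members higher ran from 0 to 6, those lower from 0 to 14, the median from -0.93 to 0.10, and its distance from that of all genes from -0.69 to 0.19. The extremes of the fall came without nicotine replicate 2, where the thin nicotine replicate 1 stands alone and is assumed to vary like the saline libraries. Akr1c19, at 0.11 with all libraries, was -2.12 there and ran up to 0.85 with others left out. Why these settings differ was not tested beyond the shift of the median. Gstm5, Gstcd, Prdx6b and Tiparp kept their sign in all 12 settings.

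The replicate numbers are shared between groups, but the labels tie them to no animal or day, and with only 2 pairs the correlation of same-numbered deviations (0.173) cannot show a pairing. With replicate number as a block, 4 members rose and 5 fell. Depth limits most in nicotine replicate 1, where 34 members had at most 3 reads.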
